A study of Mus musculus with 10 samples.

Results

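Collagens are the main structural proteins of the extracellular matrix, and the 44 genes described here each encode 1 of their alpha chains. They were every gene whose symbol has the form of a collagen chain (Col, a type number, a, a chain number) among the array probes paired with a single gene, and a gene with several such probes was represented by the probe with the highest mean level over all arrays. This gave 46 probes of 25664 tested and 44 genes of 19661, and Col6a5 and Col6a6 were the genes with 2 probes. RNA of whole adrenal glands was hybridised to 10 Affymetrix arrays, 1 per mouse. The KO group held 5 mice labelled Crem-/-, in which the gene for the cAMP responsive element modulator is disrupted, and the WT group held 5 wild-type mice. No tissue restriction of the disruption is named in the labels. All 10 mice had the mixed background 129Pas x C57Bl/J and were aged 8 weeks, untreated and killed at 0 h circadian time. The labels place the arrays in 4 batches without saying what a batch was. Batch 1 held KO 1, KO 2 and WT 1, batch 2 held KO 3 and KO 4, batch 3 held KO 5, WT 2, WT 3 and WT 4, and batch 4 held WT 5. Levels are given as log2 RMA values, and every difference is KO minus WT on that scale. RMA gives no detection call, so whether a dim probe measured any RNA could not be judged. Probes differ in affinity, so levels of different probes were not read as relative amounts of RNA, and splits by brightness and differences between 2 probes of an array serve only to compare arrays.

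A collagen molecule is a trimer of alpha chains wound into a triple helix. Fibrillar collagens such as types I, III and V assemble into the cross-banded fibres of capsules and connective tissue, type IV forms the sheet-like network of basement membranes, type VI forms beaded filaments, and the fibril-associated chains decorate the surface of fibres. In the adrenal gland, fibrous collagen is best known from the capsule, and basement membranes surround the sinusoids and the cords of steroid-producing cells.

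Some arrays stood apart before any comparison of collagen genes. Markers of adrenal cortex (9 measured genes) had mean levels of 12.27 on KO 1 and 12.16 on KO 3, and between 12.54 and 12.73 on the others. Markers of chromaffin cells, the catecholamine cells of the medulla (9 genes), had a mean level of 8.19 on KO 1 and between 11.13 and 12.14 on the others. Liver markers (8 genes) averaged 12.63 on KO 1, 8.94 on KO 3 and 7.99 on WT 3, and between 6.57 and 7.50 elsewhere. The albumin gene Alb had a level of 14.13 on KO 1. Adipocyte markers (10 genes) averaged 12.54 on KO 1 and 12.45 on KO 3, and between 8.45 and 10.85 on the other arrays. KO 2, KO 5 and WT 3 were described as lying apart in earlier results of these data, so each comparison was also run without them, and without KO 1 and KO 3. The probe of the targeted gene, Crem, did not separate the genotypes, with a mean level in KO of 7.36 ± 0.51 (SD, n = 5), a mean level in WT of 7.54 ± 0.37 (SD, n = 5) and a difference of -0.18 (limma adjusted p = 0.999). KO and WT therefore refer to the labels alone.

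Collagen chain levels did not separate KO from WT adrenal glands at this number of arrays. None of the 44 chains passed the test (limma, Benjamini-Hochberg adjusted over 25664 probes, adjusted p = 0.999 for each), and neither did any other probe (0% of 25664). At an unadjusted p under 0.05, 0 of 44 chains were called, against 878 of all probes (3.42%). Differences ranged from -0.35 for Col6a1 to 0.20 for Col5a2, with 26 chains higher and 18 lower in KO. Of all probes, 2.5% were lower and 0.923% higher at that unadjusted threshold, and of the chains 0 were either. The median difference over the 44 chains was 0.03, and that over all probes was -0.0027. The KO and WT arrays of a single chain, Col20a1, did not overlap, which held for 141 of all 19661 genes (0.717%). The 95% interval of the difference was narrow for a chain such as Col4a3 (-0.22 to 0.17) and wide for Col3a1 (-0.67 to 0.75).

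**Figure D1:**
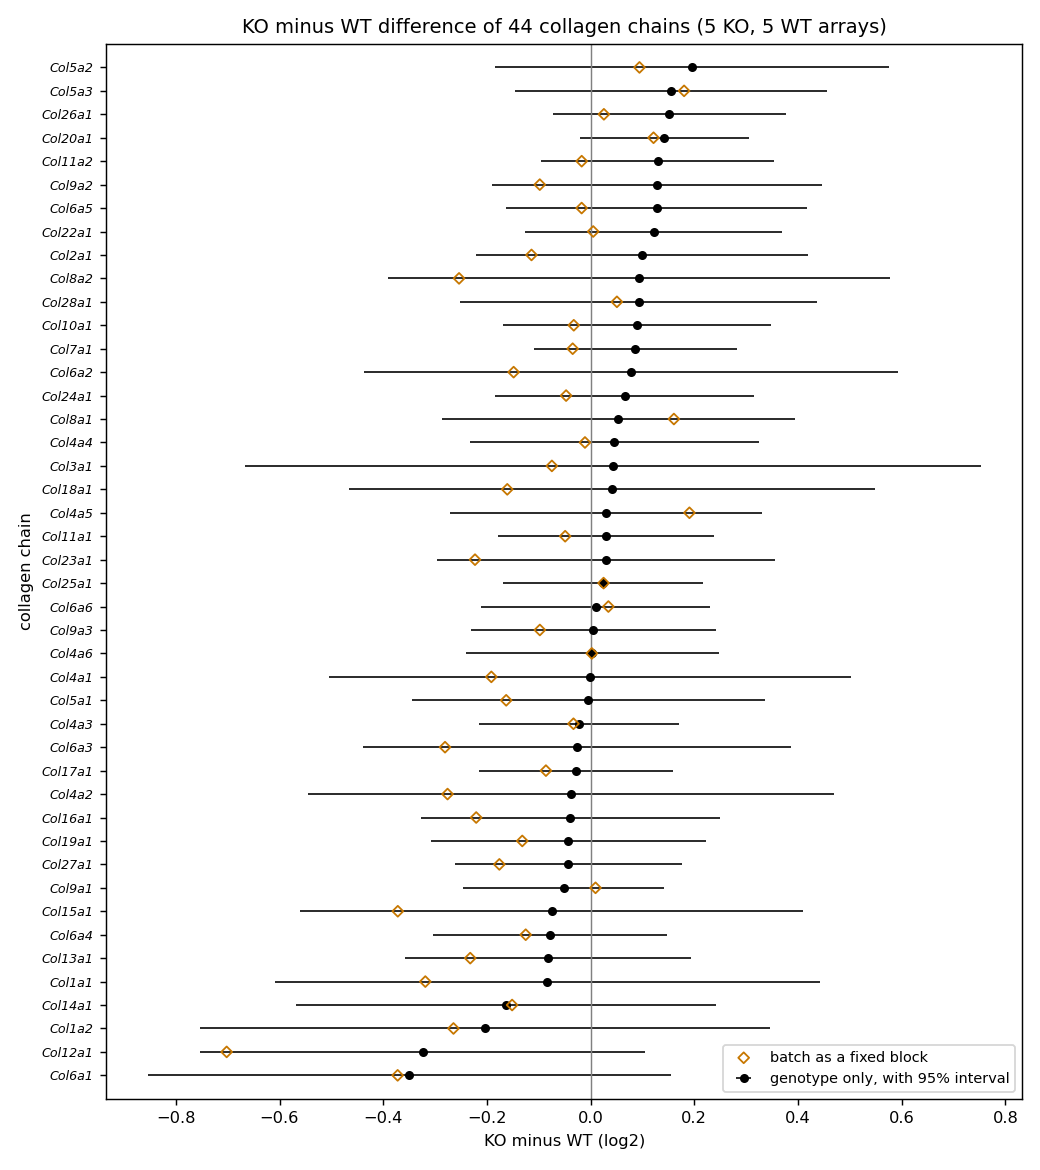
KO minus WT difference of each of the 44 collagen chains on the log2 scale, with genotype as the only term (black points, bars: 95% interval, 5 KO and 5 WT arrays) and with batch as a fixed block (open orange diamonds, without interval). Every black interval crosses 0, and the diamonds lie below 0 for 32 of 44 chains. In the blocked fit the median difference was -0.09 over the chains and -0.06 over all genes. Of all probes in the top quartile by level, 66.6% were lower in KO in that fit.

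The type I chains Col1a1 and Col1a2 share a trimer that forms the bulk fibre of connective tissue. Col1a1 had levels of 10.31, 9.16, 10.02, 10.14 and 9.37 on KO 1 to KO 5 and of 9.87, 10.29, 9.57, 9.69 and 9.997 on WT 1 to WT 5. The KO arrays enclosed all the WT arrays, with KO 2 and KO 5 lowest and KO 1 highest. The KO mean was 9.80 ± 0.51 (SD, n = 5) and the WT mean 9.88 ± 0.28 (SD, n = 5), a difference of -0.08 (SE 0.24, 95% interval -0.61 to 0.44). Col1a2 had levels of 10.63, 9.25, 10.40, 10.40 and 9.97 in KO and of 10.06, 10.69, 10.23, 10.16 and 10.52 in WT. KO 2 was again the lowest array, and the difference was -0.20 (SE 0.25, 95% interval -0.75 to 0.35). In both batches that held both genotypes, the KO means of Col1a1 and Col1a2 were lower (batch 1: -0.14 and -0.12, batch 3: -0.48 and -0.39). For both chains, KO 1 lay above and KO 2 below WT 1, the only WT array of batch 1. The batch 3 values rest on KO 5 alone.

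The 250 bases before the Col1a2 start are shown because Col1a2 was the type I chain with a promoter in the RefSeq table used (GRCm38.p6, chr6:4505368-4505617, plus strand), and capitals mark CCAAT and GGGCGG on either strand.
Col1a2: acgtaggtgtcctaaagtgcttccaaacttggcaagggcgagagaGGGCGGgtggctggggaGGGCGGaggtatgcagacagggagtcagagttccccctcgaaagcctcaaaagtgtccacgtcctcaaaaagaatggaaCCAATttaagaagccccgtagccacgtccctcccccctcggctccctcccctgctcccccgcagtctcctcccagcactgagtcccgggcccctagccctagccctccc
The stretch held 2 copies of GGGCGG, the GC box, and 1 of CCAAT.

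Col3a1, the single chain of the type III homotrimer found in the fine fibres around vessels and in capsules, had the largest spread of all 44 chains (SD 0.53 over 10 arrays). Its levels were 10.55, 8.72, 10.06, 9.06 and 9.04 in KO and 9.37, 9.54, 9.58, 9.14 and 9.59 in WT. KO 1 and KO 3 lay above every WT array, and the other 3 KO arrays lay below every one of them. The difference was 0.04 (SE 0.32, 95% interval -0.67 to 0.75) over all arrays and -0.50 without KO 1 and KO 3 (limma unadjusted p = 0.00734, adjusted p = 0.947, in a fit where 2.7% of all probes had an unadjusted p under 0.05). Leaving out the KO arrays that lay above WT fixed the sign of this value beforehand. Its unadjusted p is therefore no support for a difference. KO 1 and KO 3 were the arrays with the highest adipocyte marker levels, and their part in the Col3a1 values was not tested.

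Type V chains are minor components that start type I fibres and limit their width. Col5a2 had the highest difference of the 44 chains at 0.20 (SE 0.17, 95% interval -0.18 to 0.58). Its levels were 7.71, 6.82, 7.66, 7.03 and 7.10 in KO and lay between 7.03 and 7.13 in WT. KO 1 and KO 3 alone exceeded the WT arrays, and without them the difference was -0.08. For Col5a1 the difference was -0.0042 (SE 0.15, 95% interval -0.35 to 0.34), with KO levels from 8.04 on KO 2 to 8.63 on KO 3 and WT levels from 8.07 on WT 3 to 8.63 on WT 2. The other fibrillar chains (Col2a1, Col5a3, Col11a1, Col11a2, Col24a1 and Col27a1) differed by between -0.04 and 0.16. Over the 11 fibrillar chains the median difference was 0.04, with 7 chains higher and 4 lower in KO.

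**Figure D2:**
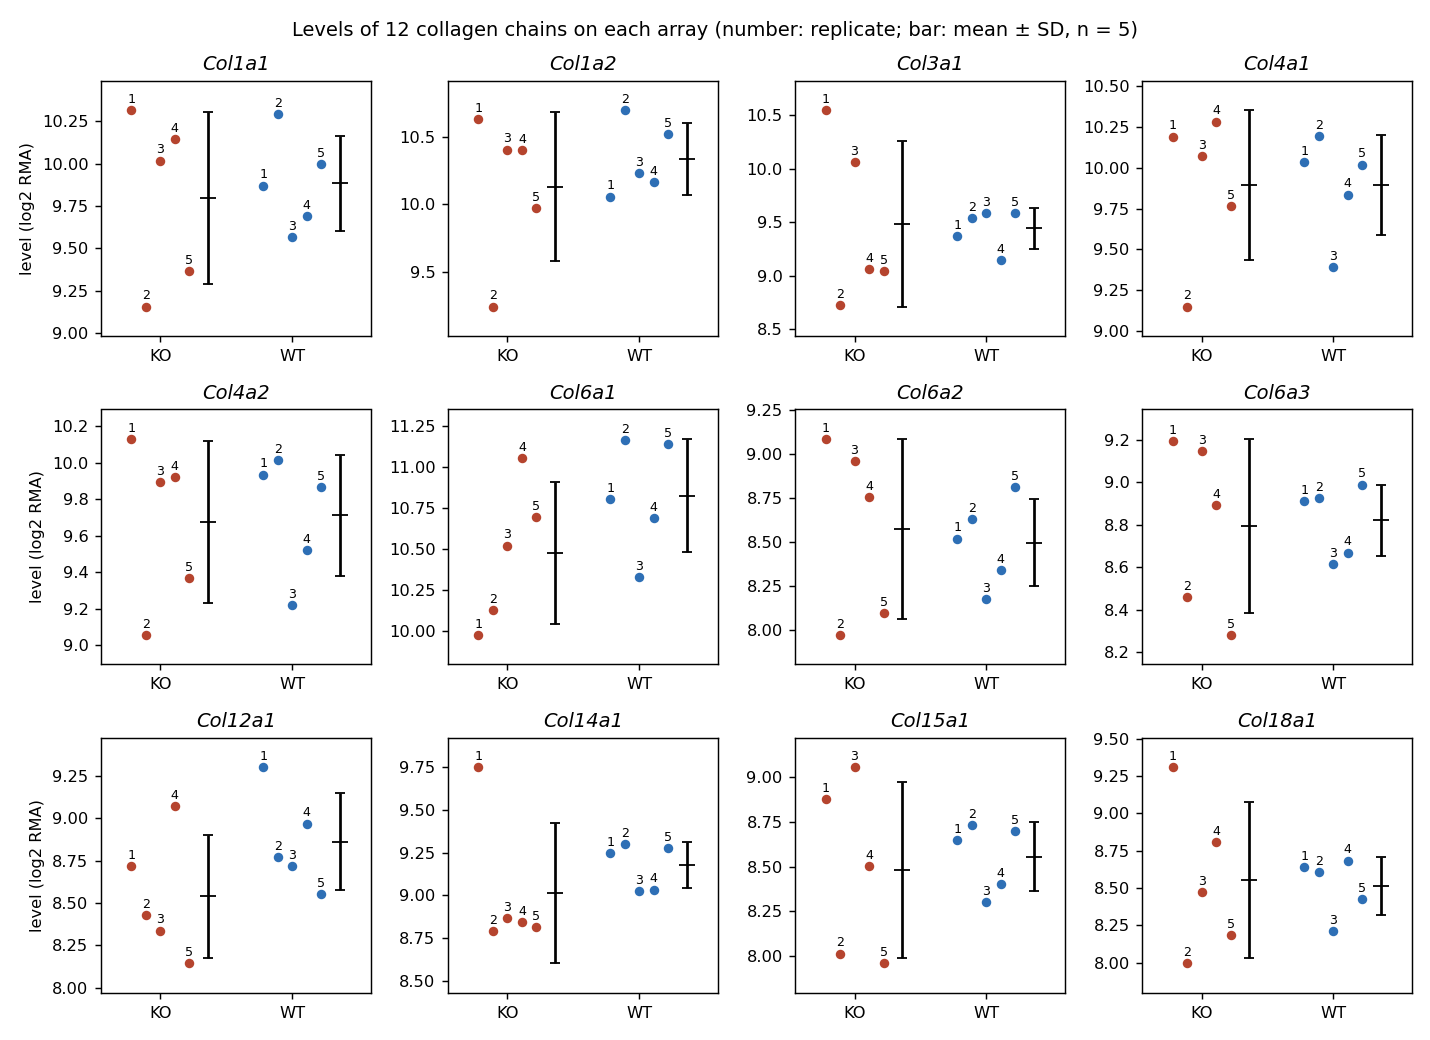
Levels (log2 RMA, vertical axes cut to each gene's range) of 12 collagen chains on each array, KO in red and WT in blue, with the replicate number above each point and a bar for the mean ± SD (n = 5). KO 2 is lowest or near lowest in most panels, while KO 1 is highest for Col3a1, Col14a1 and Col18a1 and lowest for Col6a1.

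The 6 chains of type IV collagen build the basement membrane network. Col4a1 and Col4a2, which form the trimer found in almost all basement membranes, had nearly equal means in both genotypes. Col4a1 had levels of 10.19, 9.15, 10.07, 10.28 and 9.77 in KO and of 10.03, 10.19, 9.39, 9.84 and 10.02 in WT, a difference of -0.0017 (SE 0.23, 95% interval -0.51 to 0.50). Col4a2 had levels of 10.13, 9.05, 9.89, 9.92 and 9.37 in KO and of 9.94, 10.02, 9.22, 9.52 and 9.87 in WT, a difference of -0.04 (SE 0.23, 95% interval -0.54 to 0.47). For both chains KO 2 was the lowest array, and WT 3 was the lowest of the WT arrays. The remaining type IV chains, which are known from restricted basement membranes such as that of the kidney glomerulus, had narrower ranges over the 10 arrays. Col4a3 levels lay between 7.12 and 7.47, Col4a4 between 7.42 and 7.99, Col4a5 between 6.89 and 7.53 and Col4a6 between 6.53 and 7.00. Their differences were -0.02, 0.05, 0.03 and 0.0034, and the groups overlapped for each. The median difference of the 6 chains was 0.00083, with 3 higher and 3 lower in KO.

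Col4a1 and Col4a2 are divergent neighbours. In the RefSeq table (GRCm38.p6) the region chr8:11312801-11312830, plus strand, holds both starts, and capitals mark the 22 bases from the start of Col4a2 to that of Col4a1 on the opposite strand.
Col4a2 and Col4a1 starts: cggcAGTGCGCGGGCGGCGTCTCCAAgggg
The starts of Col4a5 and Col4a6, the X-linked neighbour pair, lay 1342 bases apart in the same table.

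Type VI collagen is a filament of alpha 1, alpha 2 and alpha 3 chains around cells. Col6a1 had the lowest difference of the 44 chains. Its levels were 9.98, 10.13, 10.52, 11.05 and 10.69 in KO and 10.81, 11.16, 10.33, 10.69 and 11.14 in WT. The groups overlapped, with KO 1 and KO 2 below every WT array and KO 4 above 3 of them. The KO mean was 10.47 ± 0.43 (SD, n = 5) and the WT mean 10.82 ± 0.35 (SD, n = 5), a difference of -0.35 (SE 0.23, 95% interval -0.85 to 0.15). Batch 1 alone gave -0.75 and batch 3 alone gave -0.03. Col6a2 had levels of 9.08, 7.97, 8.96, 8.76 and 8.09 in KO and of 8.52, 8.63, 8.17, 8.34 and 8.81 in WT, a difference of 0.08 (SE 0.23, 95% interval -0.44 to 0.59). Col6a3 had levels of 9.19, 8.46, 9.15, 8.89 and 8.28 in KO and of 8.91, 8.92, 8.62, 8.67 and 8.99 in WT, a difference of -0.03 (SE 0.19, 95% interval -0.44 to 0.39). KO 1 was thus the highest array for Col6a2 and Col6a3 and the lowest for Col6a1. The less studied chains Col6a4, Col6a5 and Col6a6 differed by -0.08, 0.13 and 0.01. The other Col6a5 probe, not used in these differences, had levels of 7.85, 7.63, 7.56, 8.10 and 7.62 in KO. Its WT levels were 7.61, 7.41, 7.12, 7.15 and 7.84. On that probe WT 2, WT 3 and WT 4 lay below every KO array, while WT 1 and WT 5 lay within the KO range.

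Among the fibril-associated chains, Col12a1 and Col14a1 cover type I fibres in dense connective tissue. Col12a1 had levels of 8.72, 8.43, 8.34, 9.07 and 8.14 in KO and of 9.30, 8.77, 8.72, 8.97 and 8.55 in WT. KO 2, KO 3 and KO 5 lay below every WT array, and KO 4 lay above 4 of the 5. The means were 8.54 ± 0.36 (SD, n = 5) and 8.86 ± 0.29 (SD, n = 5), a difference of -0.32 (SE 0.19, 95% interval -0.75 to 0.11). The difference was -0.70 when batch was a fixed block (unadjusted p = 0.0104, adjusted p = 0.582), -0.73 within batch 1 and -0.68 within batch 3. In the fit with batch as a fixed block 1843 of all probes (7.18%) had an unadjusted p under 0.05, 0 passed after adjustment, and Col12a1 was the 1 chain of 44 under 0.05. Col14a1 had levels of 9.75, 8.79, 8.87, 8.85 and 8.81 in KO and between 9.03 and 9.30 in WT. KO 1 lay above every WT array and the other 4 KO arrays below every one, so that the difference of -0.16 (SE 0.18, 95% interval -0.57 to 0.24) became -0.35 without KO 1 (limma unadjusted p = 0.00584, adjusted p = 1.00, with 2.62% of all probes at an unadjusted p under 0.05). As KO 1 was the KO array above WT, leaving it out fixed the sign beforehand. This unadjusted p is therefore no support for a difference.

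Col20a1, another chain of this class and a little studied one, was the chain whose groups did not overlap. Its levels were 7.56, 7.67, 7.66, 7.68 and 7.60 in KO and 7.45, 7.55, 7.54, 7.46 and 7.46 in WT. The lowest KO array lay only just above the highest WT array, and the difference of 0.14 (SE 0.07, 95% interval -0.02 to 0.31) did not pass the test (unadjusted p = 0.080, limma). The other 6 fibril-associated chains (Col9a1, Col9a2, Col9a3, Col16a1, Col19a1 and Col22a1) differed by between -0.05 and 0.13, and Col21a1 was not measured.

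Col15a1 and Col18a1, the multiplexins, are proteoglycan chains at basement membranes, and Col18a1 is the precursor of endostatin. Col15a1 had levels of 8.88, 8.01, 9.06, 8.50 and 7.96 in KO and of 8.65, 8.73, 8.30, 8.40 and 8.70 in WT, a difference of -0.08 (SE 0.22, 95% interval -0.56 to 0.41). Col18a1 had levels of 9.31, 7.99, 8.47, 8.81 and 8.19 in KO and of 8.64, 8.61, 8.21, 8.68 and 8.43 in WT, a difference of 0.04 (SE 0.23, 95% interval -0.47 to 0.55). For both, the KO arrays spread to either side of the WT arrays. The 3 short-chain network genes differed by 0.05 (Col8a1), 0.09 (Col8a2) and 0.09 (Col10a1). Of the 4 transmembrane chains, which are anchored in the plasma membrane, Col13a1 differed by -0.08, Col17a1 by -0.03, Col23a1 by 0.03 and Col25a1 by 0.02. The last 3 chains were Col7a1, which builds the anchoring fibrils of skin (0.09), Col26a1 (0.15) and Col28a1 (0.09).

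Collagen levels varied among arrays of the same genotype, where mouse and batch cannot be told apart. The 9 chains in the top quartile of all probes by mean level (8.69 or more), Col1a1, Col1a2, Col3a1, Col4a1, Col4a2, Col6a1, Col6a3, Col12a1 and Col14a1, had SDs over the 10 arrays of 0.30 to 0.53 with a median of 0.37, where the median over all probes of that quartile was 0.352. The other 35 chains had SDs of 0.087 to 0.38 with a median of 0.17. The median over all genes was 0.259, but these include the brighter genes, so the 2 medians are not at like level. Averaged over the 9 brighter chains, the deviation from each chain's own mean was 0.34, -0.58, 0.10, 0.14 and -0.33 on KO 1 to KO 5 and 0.13, 0.28, -0.19, -0.07 and 0.17 on WT 1 to WT 5. The extremes were therefore both KO arrays of batch 1, and the SD of this deviation was 0.378 over the KO arrays and 0.191 over the WT arrays, a contrast that was not tested. KO 2 was the lowest array for 22 of 44 chains, and it was the lowest for 21.8% of all genes. WT 3 was the lowest for 9 of 44 chains (12.9% of all genes) and KO 4 the highest for 16 (17.2% of all genes). Col8a1, singled out after its values were seen, ran the other way, with its highest level on KO 2 (7.36) and its lowest on KO 1 (6.49).

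**Figure D3:**
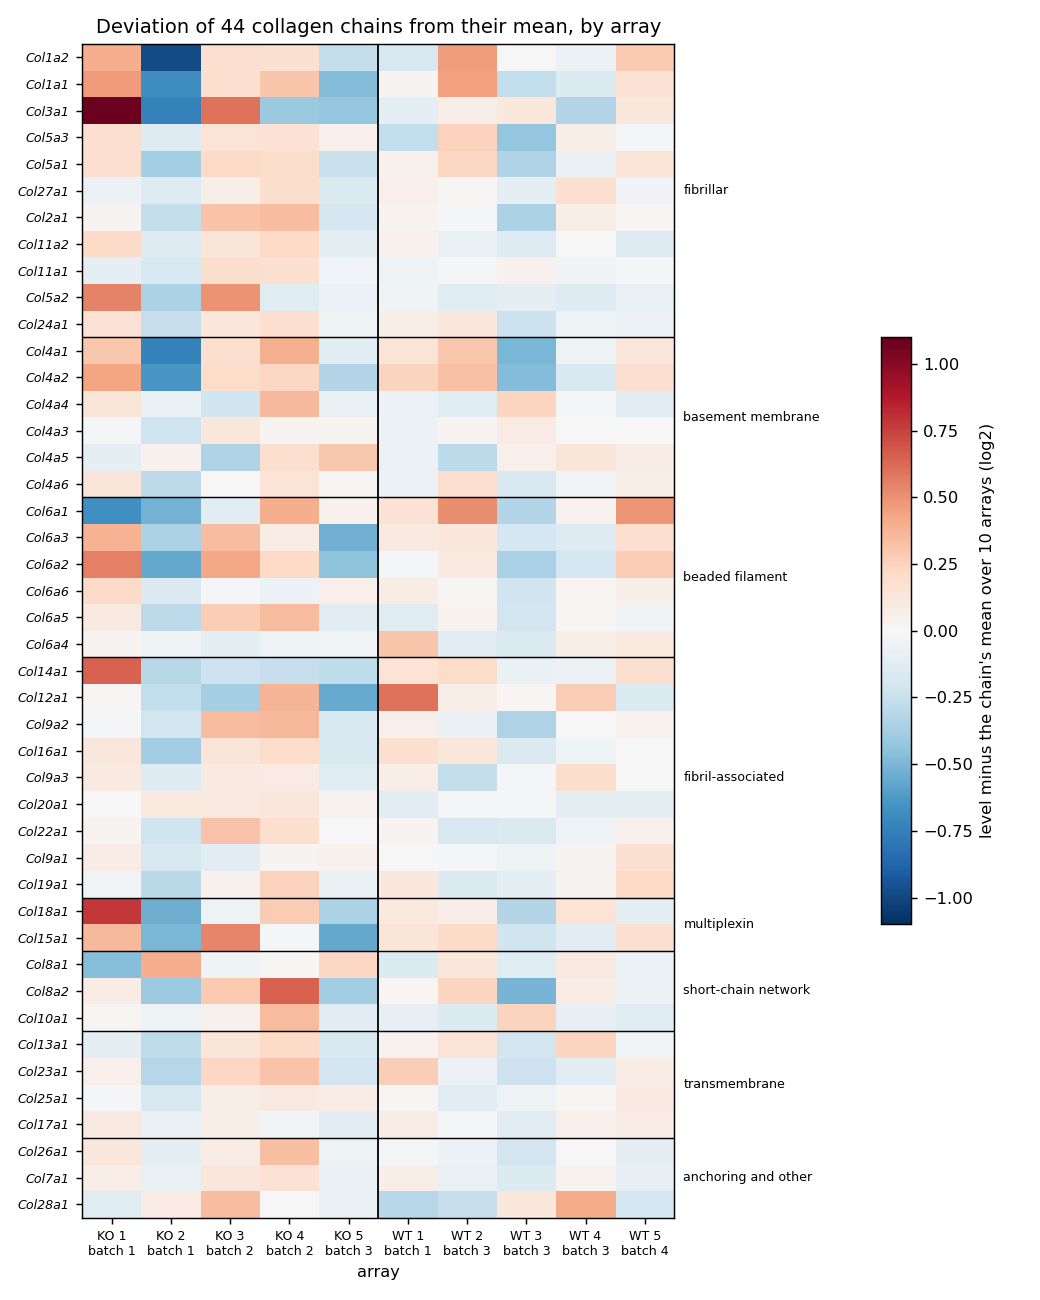
Deviation of each of the 44 collagen chains from its own mean over the 10 arrays (log2, red above and blue below the mean), with chains grouped by class and sorted by level within a class. KO 2 is blue for most chains, KO 1 is dark red for Col3a1, Col14a1 and Col18a1, and Col6a1 on KO 1 is blue beside the red of Col6a2 and Col6a3.

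Because batches held unequal numbers of the genotypes, the brighter chains were also compared within them. Over all arrays 8 of the 9 had a lower mean in KO and 1 a higher one, with a median difference of -0.08. All 6416 probes of the top quartile had a median difference of -0.11, with 72.3% of them lower in KO, so the brighter chains did not exceed the shift of probes of like level. With batch as a fixed block all 9 were lower, with a median of -0.28, while the median was -0.18 over the top quartile (66.6% lower), -0.06 over all probes and -0.09 over all 44 chains. Within batch 1 (KO 1, KO 2 and WT 1) 7 of 9 were lower with a median of -0.14, against -0.21 over the top quartile (65.1% lower). Within batch 3 (KO 5 against WT 2, WT 3 and WT 4) 9 of 9 were lower with a median of -0.38, against -0.12 over the top quartile (65.6% lower). The batch 3 value rests on a single KO array, which was the lowest array of all for Col6a3 and Col12a1. These 9 chains share arrays and vary together, so their directions are not independent of each other.

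Marker lists of the cell types a gland can hold were followed over the same arrays. In bulk tissue, fewer cells of a type and less RNA per cell cannot be told apart. Capsule and fibroblast markers (11 of 11 measured) averaged 9.34, 8.35, 8.84, 8.53 and 8.35 on KO 1 to KO 5 and 8.93, 8.73, 8.60, 8.61 and 8.72 on WT 1 to WT 5, so that KO 1 was highest and KO 2 and KO 5 lowest, as for the 9 brighter chains. The members of this list did not share that pattern, with 5 of 11 highest on KO 1, 3 lowest on KO 2 and 1, Pdgfra, lowest on KO 1 (9.73). Mural cell markers (9 of 9) averaged 8.78, 8.24, 8.77, 8.55 and 8.22 in KO and between 8.31 and 8.62 in WT, also with KO 1 highest and KO 5 and KO 2 lowest. Endothelial markers (10 of 10) averaged between 9.95 and 10.39 in KO and between 10.16 and 10.70 in WT, with KO 1 lowest. Of these 10 genes 3 were lowest on KO 1 and 1, Cdh5, was highest there (10.38). Macrophage markers (9 of 9) averaged between 8.49 and 9.63 in KO and between 8.89 and 9.60 in WT, again with KO 1 highest and KO 2 lowest. The order of arrays seen for the brighter chains was thus not particular to capsule and fibroblast markers. Markers of cartilage and bone (7 of 8), the tissues for which Col2a1, Col9a1 and Col10a1 are best known, averaged between 6.22 and 6.78 on all arrays, and glia markers (6 of 8) between 6.49 and 6.95. The part of any of these cell types in the collagen values was not tested.

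**Figure D4:**
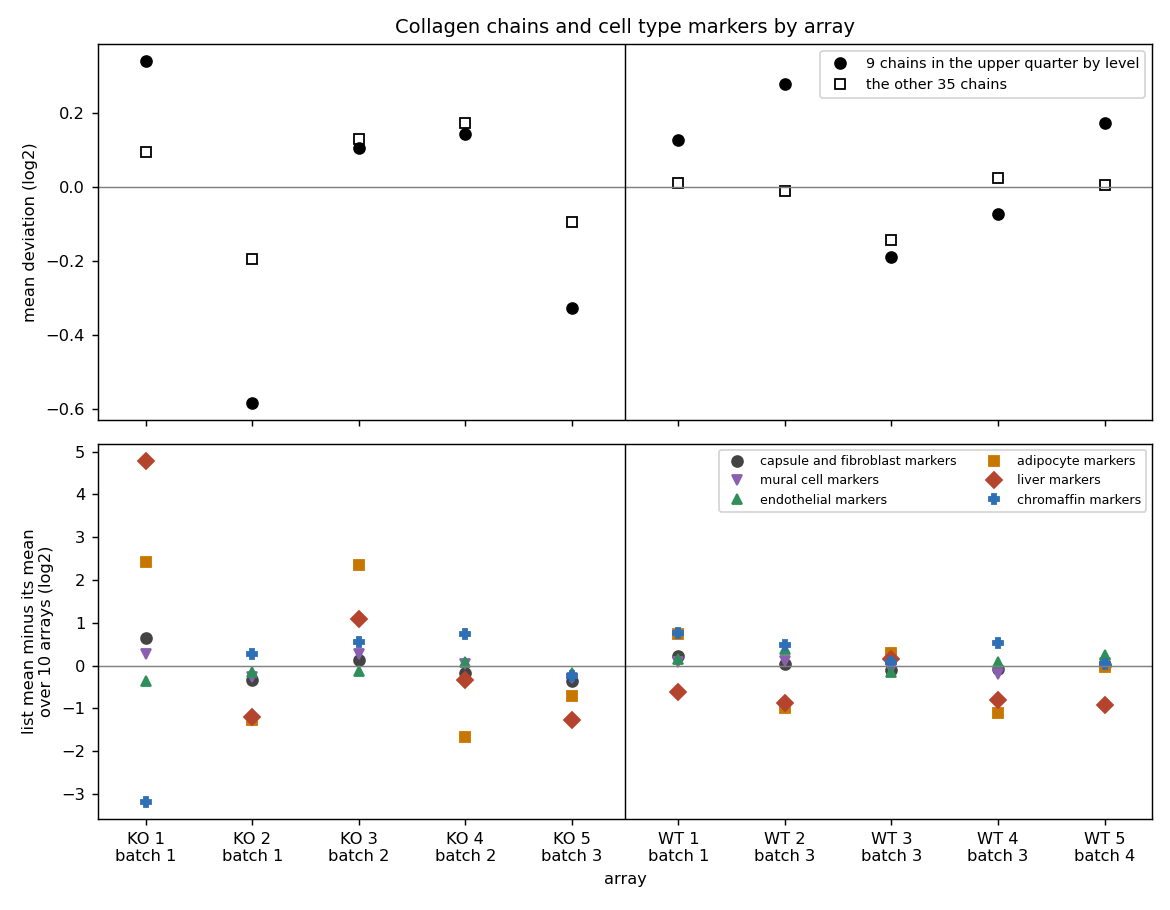
Upper panel: mean deviation (log2) of the 9 brighter collagen chains (filled circles) and of the other 35 (open squares) from each chain's own mean, by array. Lower panel: mean level of each cell type marker list minus its mean over the 10 arrays (log2). KO 1 stands highest for the brighter chains (0.34) and for liver and adipocyte markers and lowest for chromaffin markers, and KO 2 stands lowest for the brighter chains (-0.58).

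Chains that share a trimer were then followed across the 10 arrays, in 10 pairs with p-values adjusted over them. Col1a1 and Col1a2 rose and fell together (Pearson r = 0.90, permutation p = 0.0001, adjusted p = 0.0005; Spearman rho = 0.89, permutation p = 0.00107, adjusted p = 0.0056). Without KO 2 and KO 5, the arrays farthest from the median of Col1a1, r was 0.82 (permutation p = 0.0148, adjusted p = 0.0738), and rho was 0.79 (permutation p = 0.0279, adjusted p = 0.140), so neither passed after adjustment. The permutation adjusted p of r was 0.012 without KO 2 alone and 0.0044 without KO 5 alone. Dependence on those 2 arrays and the smaller number of arrays cannot be told apart here. Col4a1 and Col4a2 were the closest pair (r = 0.95, permutation p = 7e-05, adjusted p = 0.0005; rho = 0.89, permutation p = 0.00112, adjusted p = 0.0056) and gave r = 0.90 without KO 2 and WT 3 (permutation p = 0.00459, adjusted p = 0.0459), where rho no longer passed (rho = 0.79, permutation p = 0.0279, adjusted p = 0.140). After the genotype means were removed, r was 0.91 for the type I pair and 0.95 for the type IV pair. Batches were too small for a value within each, and leaving out any whole batch kept r between 0.90 and 0.97 for the type I pair and between 0.94 and 0.97 for the type IV pair, although with 6 arrays left (without batch 3) neither passed after adjustment (0.0833 and 0.229).

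Col6a1 did not follow its partners. With Col6a2 it gave r = 0.16 (permutation p = 0.651, adjusted p = 0.781; rho = 0.12) and with Col6a3 r = 0.10 (permutation p = 0.781, adjusted p = 0.781; rho = 0.079). The level of Col6a1 minus that of Col6a2 within an array was 0.89 on KO 1 and 1.56 on KO 3 and lay between 2.16 and 2.60 on the other 8 arrays. Without KO 1 and KO 3, r was 0.91 for Col6a1 and Col6a2 (permutation p = 0.00253, adjusted p = 0.00843) and 0.73 for Col6a1 and Col6a3 (permutation p = 0.0457, adjusted p = 0.114). The arrays left out were those that departed most in the within-array difference, which favours a higher r. These p-values are therefore no support for a link between the chains. Without the 2 arrays farthest from the median of Col6a1 (KO 1 and KO 2) the r values were 0.46 and 0.34. Without KO 2, KO 5 and WT 3 they were -0.49 and -0.52. KO 1 and KO 3 were also the arrays with adipocyte marker means of 12.54 and 12.45, and whether fat tissue had a part in the Col6a1 departure was not tested.

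**Figure D5:**
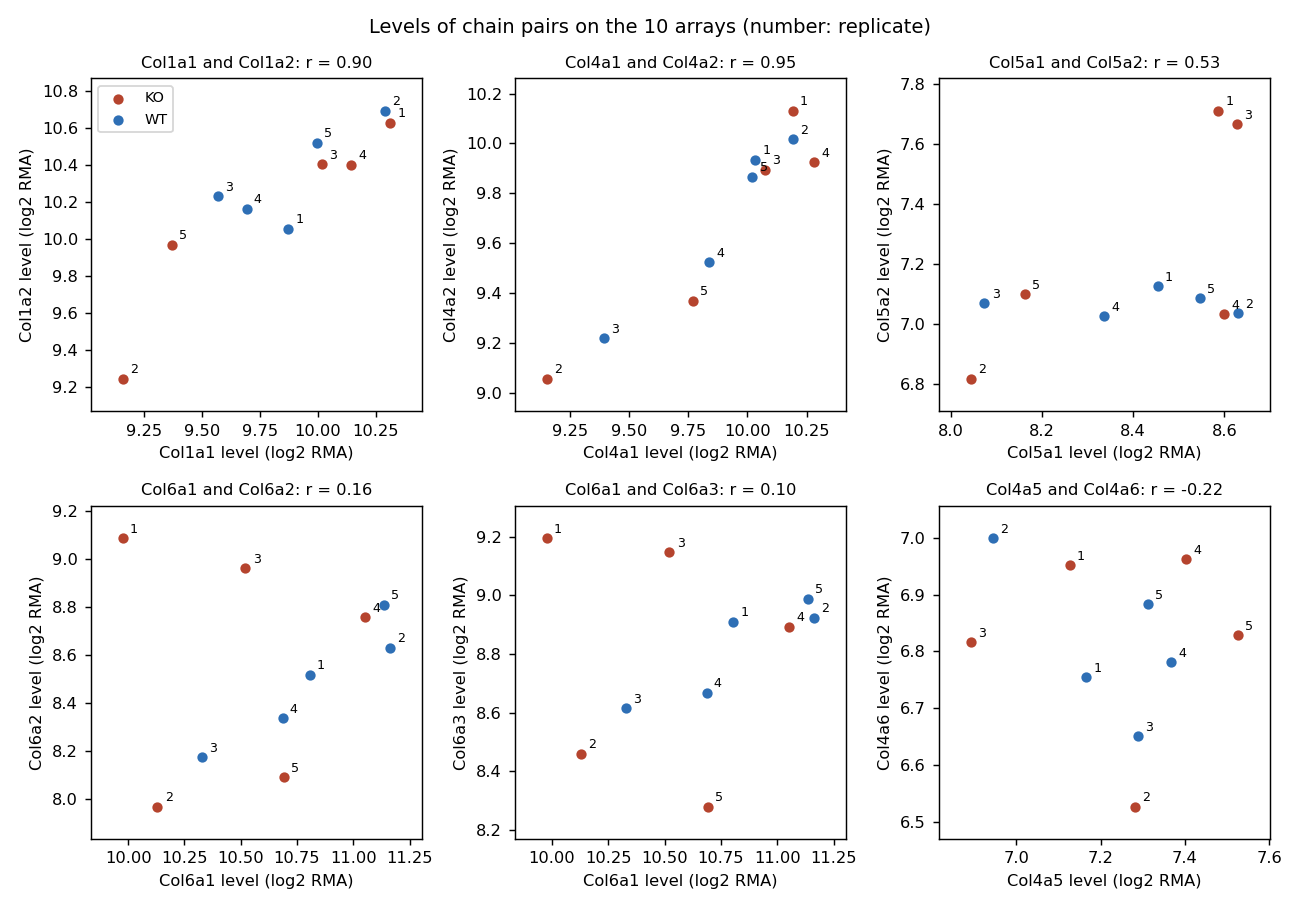
Levels (log2 RMA) of 6 pairs of collagen chains on the 10 arrays, KO in red and WT in blue with replicate numbers, and Pearson r over all 10 in each title. The type I and type IV pairs lie along a line, while KO 1 and KO 3 lie apart from the other arrays in the panels of Col6a1.

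Of the other pairs, Col5a1 and Col5a2 gave r = 0.53 (permutation p = 0.10, adjusted p = 0.334; rho = 0.35), and KO 1 and KO 3 were the only arrays with a Col5a2 level above 7.13. Col11a1 and Col11a2 gave r = 0.43 (rho = 0.14), Col9a1 and Col9a2 r = 0.11 (rho = 0.21) and Col4a3 and Col4a4 r = 0.11 (rho = -0.24). Col4a5 and Col4a6, which share a promoter region, gave r = -0.22 (rho = -0.03), and Col8a1 and Col8a2 gave r = -0.24 (rho = -0.03). None of these 6 pairs passed after adjustment (permutation adjusted p from 0.334 to 0.781). Both chains of each of these 6 pairs were measured by probes below the top quartile by level. Col3a1 and Col1a1 lie in the same fibres but in different trimers, and the level of Col3a1 minus that of Col1a1 within an array ran from -1.08 on KO 4 to 0.23 on KO 1.

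The genes that fold, process, bind and degrade collagen were compared by lists. None of the measured genes in the 6 lists passed the test (limma adjusted p over 0.05 for each). The enzymes of collagen folding and modification (17 of 18 measured) had a median difference of -0.20, with 14 lower and 3 higher in KO and 1 at an unadjusted p under 0.05, where 2.5% of all probes were lower at that threshold. That gene was P4ha1, a catalytic subunit of prolyl 4-hydroxylase, with a difference of -0.45 (unadjusted p = 0.019) that was -0.12 with batch as a fixed block. In that blocked fit the list's median was -0.34, and 5 of 17 genes (P4ha2, P3h1, P3h3, P3h4 and Crtap) had an unadjusted p under 0.05 and were lower in KO, beside 7.18% of all probes, with 0 past adjustment (adjusted p = 0.582 for each of the 5). P3h4, a scaffold for lysine hydroxylation, differed by -0.45 and by -0.75 with the block. The probes of the top quartile by level, which holds some of these enzymes, had a median of -0.11, and of -0.18 with the block. Procollagen processing and cross-linking genes (11 of 13) had a median of -0.02, and the propeptide protease gene Adamts3 (-0.22, unadjusted p = 0.046) and the protease enhancer gene Pcolce (-0.39) had the smallest p-values. Genes of collagen breakdown (12 of 12) had a median of -0.16 and receptors (8 of 9) of -0.02, with 0 genes under 0.05 in either. With batch as a fixed block 0 breakdown genes and 1 receptor gene were under it. That gene was Ddr1 (-0.67, limma unadjusted p = 0.032), beside 7.18% of all probes. Timp2, a metalloproteinase inhibitor, differed by -0.43, Mmp14, a membrane-bound collagenase, by -0.37, the integrin gene Itga1 by 0.17 and its partner Itgb1 by -0.28. Fibril-binding proteoglycans and glycoproteins (12 of 12) had a median of -0.11, with 0 under 0.05 and with differences of -0.41 for Thbs1 and -0.16 for Sparc. With the block 1 of them, Bgn (-0.58, limma unadjusted p = 0.039), was under 0.05.

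The partners of type IV collagen in basement membranes, laminins, nidogens, perlecan and agrin (14 of 15 measured), had 4 genes lower and 0 higher in KO at an unadjusted p under 0.05, where 2.5% of all probes were lower and 0.923% higher. With batch as a fixed block 1 of the 14, Lama1, was under 0.05 (unadjusted p = 0.0368, against 7.18% of all probes), and the other 3 were not. The list's median difference was -0.15, against -0.0027 over all probes. Over the probes of the top quartile by level, which holds some of these genes, the median was -0.11, with 72.3% lower in KO. Lama1, the laminin alpha 1 chain, had levels of 7.64, 7.97, 7.65, 8.20 and 7.93 in KO and of 8.29, 8.38, 8.30, 8.30 and 8.48 in WT. Its groups did not overlap, which held for 141 of all 19661 genes (0.717%). The Lama1 difference was -0.47 (SE 0.12, limma unadjusted p = 0.002, adjusted p = 0.999), with -0.44 under the batch block, -0.48 within batch 1 and -0.40 within batch 3. Lamb1, the beta 1 chain, differed by -0.30. The others of the 4 were Lama3 (-0.39) and Lama2 (-0.30), named after their values were seen. None of the type IV chains was under that threshold. Chromaffin and endothelial markers were also lower in KO, with medians of -0.82 (9 of 9 genes lower) and -0.33 (10 of 10 lower). Without KO 1 these medians were -0.05 (7 of 9 genes lower) and -0.25 (10 of 10 lower), so the size of the chromaffin median over all arrays depended largely on KO 1. Within batch 3, which lacks KO 1 and has KO 5 as its single KO array, they were -0.67 and -0.29. The part of either cell type in the laminin values was not tested.

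CREM binds the cAMP response element, whose letters are TGACGTCA, so the promoters of the chains were searched for it. RefSeq promoter windows (GRCm38.p6, 250 bases before to 50 after a start) were found for 35 of the 44 genes, in 38 windows, and each motif was searched on both strands. The full element was present in 1 of 38 windows (2.63%), against 1.79% of all 32851 windows. It lay in Col24a1, a minor fibrillar chain, beginning 7 bases before the start, and the stretch chr3:145292435-145292472 (plus strand) is shown with the element in capitals.
Col24a1: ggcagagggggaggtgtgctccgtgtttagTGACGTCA
Col24a1 levels lay between 6.77 and 7.21 in KO and between 6.78 and 7.14 in WT, and the difference of 0.07 (SE 0.11, 95% interval -0.18 to 0.32) was smaller than the spread between mice. The shorter TGACG, which lies within the full element, was in 10.5% of the chains' windows and 20.8% of all windows. CCAAT was in 34.2% against 37.4%, TATAAA in 13.2% against 13.6% and GGGCGG in 60.5% against 35.7%. These counts describe letters in the windows, which share sequence where genes are divergent neighbours, and no binding was measured.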

How the data were processed

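The authors deposited 1 log2 value per probe and array. Their processing notes name RMA (background correction, quantile normalisation and a summary over the oligonucleotides of a transcript). The software, its version and any correction for batches were not given in the sources used here. No background level came with the values. Of 35557 rows, 25689 were measured on all arrays. After 25 array controls were left out, 25664 probes were tested. Array medians lay between 7.17 and 7.25. Precision is limited by the 5 arrays per genotype.

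Symbols came from the platform annotation, and 19584 of 19661 genes matched RefSeq by Entrez ID. KO and WT were compared over all 10 arrays with limma 3.58.1 in R 4.3.3 (lmFit, eBayes, two-sided, genotype as the only term) and Benjamini-Hochberg adjustment over all probes at 0.05. The labels number the animals, so arrays were taken as separate mice. Chain pairs were tested with 100000 permutations (scipy 1.17.1, two-sided). On simulated arrays the fit recovered 19.5% of differences of 0.5, 61.1% of 1 and 89.4% of 2 at an adjusted p under 0.05. The collagen differences ran from -0.35 to 0.20, smaller in size than any simulated, so such differences could well be missed. Alternatives were batch as a fixed or random block, each of batches 1 and 3 alone, a median shift, repeated quantile normalisation, the mean of a gene's probes, the brighter probes, eBayes with trend and robust, arrayWeights, other thresholds and fewer arrays. Named were the main type I, III, IV, V, VI, XII, XIV, XV and XVIII chains, the 6 chains with the largest SD, chains whose groups did not overlap and, per pathway list, the 2 genes with the smallest p. The collagen genes, lists and pairs were chosen with earlier results of these data known. Other background corrections need scanner values and were not run. Figures were drawn with matplotlib 3.10.9.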

Additional observations from a re-analysis of the deposited data

Results flagged for a closer look

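In each group of 5 arrays the highest and the lowest value of every collagen chain were compared with the nearest other array. Of 88 such groups, 4 held an array far from the rest, and chance alone marks about 1 in 20. Col14a1 had a level of 9.75 on KO 1, with the nearest KO array at 8.87. WT 3 accounted for the other 3, with Col2a1 at 7.56 (nearest WT array 7.89), Col6a6 at 7.55 (nearest 7.78) and Col10a1 at 6.41 (nearest 6.08). WT 3 was the lowest WT array for Col2a1 and Col6a6 and the highest for Col10a1.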

How the results depend on the processing

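Under every alternative run, including adjusted p thresholds of 0.01 and 0.1, 0 collagen chains and 0 genes of the collagen handling lists passed the adjusted test, and the median difference of the 44 chains moved by less than the SD of the array medians within groups (-0.09 with batch as a fixed block to 0.14 without KO 2, KO 5 and WT 3). The count at an unadjusted p under 0.05, with the share of all probes under it in the same fit, was 0 over all arrays (3.42%), 1 with arrayWeights (Col6a1; 6.49%), 1 with batch as a fixed block (Col12a1; 7.18%), 1 within batch 3 (Col12a1; 1.03%), 1 without KO 1 and KO 2 (Col14a1; 3.01%, an alternative chosen after seeing the data), 3 without KO 1 and KO 3 (Col3a1, Col14a1 and Col15a1, each lower in KO; 2.7%) and 4 without KO 2, KO 5 and WT 3 (Col5a2, Col6a2, Col6a5 and Col11a2, each higher in KO; 12.2%). Leaving out each array in turn gave 0 to 2 such chains (1.96% to 5.7% of all probes), with Col14a1 without KO 1 (2.62%) and with Col6a1 and Col12a1 without KO 4 (5.7%). Of 244 single-chain differences under other settings 38 changed sign: with arrayWeights for Col4a3 (0.0038) and Col4a6 (-0.0081); with batch as a fixed block for Col3a1 (-0.0747), Col4a4 (-0.0108), Col6a2 (-0.15) and Col18a1 (-0.16); with batch as a random block for Col18a1 (-0.005); after the median shift for Col4a6 (-0.0177); after repeated quantile normalisation for Col5a1 (0.0405), Col4a1 (0.0389), Col4a6 (-0.0304) and Col6a3 (0.0267); within batch 1 for Col4a6 (-0.0155) and Col14a1 (0.0215); within batch 3 for Col3a1 (-0.38), Col4a4 (-0.11), Col6a2 (-0.29) and Col18a1 (-0.32); without KO 1 and KO 2 for Col3a1 (-0.056), Col5a1 (0.0548), Col4a1 (0.15), Col4a2 (0.0171), Col4a3 (0.0497) and Col18a1 (-0.0236); without KO 1 and KO 3 for Col3a1 (-0.50), Col5a2 (-0.0849), Col4a6 (-0.0412), Col6a2 (-0.22) and Col18a1 (-0.18); without KO 2, KO 5 and WT 3 for Col1a1 (0.20), Col1a2 (0.12), Col5a1 (0.11), Col4a1 (0.16), Col4a2 (0.15), Col4a3 (0.0528), Col4a5 (-0.0567), Col6a3 (0.21) and Col15a1 (0.19). Leaving out each array, signs changed within these ranges: Col15a1 (-0.22 to 0.0557), Col18a1 (-0.15 to 0.18), Col1a1 (-0.21 to 0.077), Col1a2 (-0.33 to 0.0175), Col3a1 (-0.22 to 0.23), Col4a1 (-0.13 to 0.18), Col4a2 (-0.16 to 0.12), Col4a3 (-0.0556 to 0.0304), Col4a4 (-0.0364 to 0.11), Col4a5 (-0.0399 to 0.12), Col4a6 (-0.0375 to 0.0759), Col5a1 (-0.0877 to 0.0858), Col6a2 (-0.0493 to 0.23) and Col6a3 (-0.13 to 0.10). Pairs past adjustment numbered 2 over all arrays, 1 without the 2 arrays farthest from the median, 3 without KO 1 and KO 3, 0 without KO 2, KO 5 and WT 3 and 0 without batch 3, the last settings leaving fewer arrays. Signs of r changed without the 2 arrays farthest from the median for Col4a5-Col4a6 (0.0754), Col8a1-Col8a2 (0.045), Col9a1-Col9a2 (-0.18) and Col11a1-Col11a2 (-0.29); without KO 2, KO 5 and WT 3 for Col4a3-Col4a4 (-0.25), Col6a1-Col6a2 (-0.49), Col6a1-Col6a3 (-0.52), Col8a1-Col8a2 (0.31) and Col9a1-Col9a2 (-0.46); without batch 1 for Col4a3-Col4a4 (-0.0302), Col8a1-Col8a2 (0.0399) and Col9a1-Col9a2 (-0.0975); without batch 2 for Col11a1-Col11a2 (-0.29); without batch 3 for Col4a5-Col4a6 (0.0407), and, leaving out each array, for Col4a3-Col4a4 (-0.0423 to 0.38), Col4a5-Col4a6 (-0.36 to 0.0063), Col6a1-Col6a2 (-0.0911 to 0.64), Col6a1-Col6a3 (-0.10 to 0.50) and Col9a1-Col9a2 (-0.12 to 0.46). The cause of these changes was not tested. No paired analysis was possible because the replicate numbers were given in accession order and tie no KO mouse to a WT mouse. RMA values carry no background level, so what signal over background limits is unknown here.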
